A study of Mus musculus with 6 samples.

Results

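The MYC, MAX and MNT network was followed in mouse LT-HSCs, the long-term stem cells of the blood, through the open chromatin around 8 of its genes: Myc, Max, Mlx, Mnt, Mxd1, Mxd4, Mxi1 and Mga. A peak of the deposited consensus set counted as a network peak when its midpoint lay within 50 kb of the nearest end of a protein-coding gene and that end belonged to 1 of the 8 genes (RefSeq genes of GRCm38.p6, also called mm10). This gave 28 of 42632 peaks: 4 at Myc, 3 at Max, 1 at Mlx, 5 at Mnt, 3 at Mxd1, 1 at Mxd4, 8 at Mxi1 and 3 at Mga. The repressors hold 20 of them, and the activator Myc with the partners Max and Mlx holds 8. The genes were chosen by earlier results of the same contrast, in which the fold change at Mnt between confined and unconfined libraries had been seen, so counts, fold changes and calls at these peaks describe the libraries and are not independent tests.

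ATAC-seq reads open chromatin through the places where a transposase can cut and tag the DNA. Confined cells (n = 3 libraries) spent 13 h in suspension, were left for 0.5 h to attach to glass coated with fibronectin, spent 2 h confined to a height of 5 µm and were recovered with a dissociation reagent. Unconfined cells (n = 3) stayed in suspension for 16 h. All cells were LT-HSCs sorted as Lin- Sca1+ cKit+ CD34- Flt3- from the marrow of C57BL/6 mice (age 10 to 16 weeks), and both groups were kept in the same medium at low oxygen. Only confined cells were attached and recovered from glass, so these steps and confinement cannot be told apart. The study calls the samples biological replicates without saying whether each came from a separate animal, so the spread between them may be partly technical.

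MYC is a basic helix-loop-helix leucine zipper protein that binds DNA as a dimer with MAX and activates genes of growth, ribosome assembly and metabolism. MNT, the MXD proteins (MXD1, MXD4 and MXI1) and MGA also bind DNA through MAX and repress through co-repressor complexes, so that MAX is shared between opposed partners. MLX is a MAX-like protein that pairs with the glucose-responsive Mondo factors and with some of the repressors. All of these dimers recognise the E-box, CACGTG. In blood stem cells, MYC is kept low in quiescent cells and its rise is tied to exit from the niche and to differentiation.

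The promoters of 4 of the 7 genes with an entry in the RefSeq promoter table hold that E-box, and they are shown because the same letters are the site the network's own proteins read. Each line gives 30 bases 5′ to 3′ on the gene's strand (RefSeq, GRCm38.p6), with the E-box in capitals.
Mnt, chr11:74830789-74830818, plus strand: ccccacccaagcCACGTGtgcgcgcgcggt
Mxd4, chr5:34187912-34187941, minus strand: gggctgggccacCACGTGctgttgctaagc
Max, chr12:76962234-76962263, minus strand: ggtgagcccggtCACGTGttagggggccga
Mlx, chr11:101087238-101087267, plus strand: ggtgggttggatCACGTGactgagcctcgc
The E-box begins 123 bases before the annotated start of Mnt, 219 before that of Mxd4, 3 before that of Max and 40 before that of Mlx. The motif reads the same on both strands. It was found in 4 of the 9 windows of the 7 genes. Of all 32851 promoter windows of the same 300 bases (250 before the start and 50 after it), 7.15% held it. In Mxd4, Max and Mlx it lies inside a network peak, and in Mnt it lies 7 bp beyond the edge of the promoter peak.

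The promoters of Mxd1, Mxi1 and Mga did not hold CACGTG. The Mga window held 1 copy of the related CACGCG (searched on both strands, in 9.27% of all windows). The GC box GGGCGG, the site of SP and KLF proteins, was present at least once, on either strand, in 7 of the 9 windows, from 5 of the 7 genes. Of all windows, 35.7% held it. The Mxd1 window holds 6 GC boxes and the Mnt window 4. The 9 windows held 55.0 to 76.7% G and C, against a median of 52.7% over all windows. The part of this in the GC box count was not tested. The bases before the Mnt start are printed because they join the highest Mnt peak to its E-box. Capitals mark the E-box and the GC box on either strand.
Mnt, chr11:74830674-74830923, plus strand: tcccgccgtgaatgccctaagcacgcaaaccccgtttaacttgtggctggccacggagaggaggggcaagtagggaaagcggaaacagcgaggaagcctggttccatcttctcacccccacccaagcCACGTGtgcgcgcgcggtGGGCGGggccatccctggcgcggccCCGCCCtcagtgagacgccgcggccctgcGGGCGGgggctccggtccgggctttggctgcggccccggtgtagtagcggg
The E-box and the nearest GC box stand close together in this stretch, downstream of the promoter peak's edge. A match is a description of the letters and no evidence of binding.

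Total counts in peaks were 128257 to 340922 in confined and 304898 to 1229478 in unconfined libraries, and all peaks were 700 bp wide, so levels can be compared between peaks. Levels are given as raw counts, as percentiles among all peaks of the same library, and as multiples of the average peak of that library. The multiples divide by the library total and so depend on total-count scaling. The 28 network peaks ranked alike in the unconfined libraries, with r = 0.874 to 0.927 between pairs of them (log2(CPM + 1), across 28 peaks, as a description). Confined library 1 gave r = 0.608 to 0.717 with the unconfined libraries over these peaks, confined library 2 gave 0.228 to 0.316, and confined library 3 gave -0.407 to -0.272. Over all peaks, confined libraries 2 and 3 also stood apart (r = -0.0270 to 0.05 with the unconfined libraries, against 0.418 to 0.524 for confined library 1). Peaks called in the edgeR fit are therefore also given from a fit in which library 1 alone stands for confined cells.

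Peaks near LT-HSC markers were present at 13 of 14 genes, with none at Ly6a, the gene of the Sca1 marker. Their summed level was 140 to 180 per 100000 counts in confined and 174 to 188 in unconfined libraries. Of their 18 tested peaks, 1 was called lower and 0 higher, beside 2.42% lower and 5.79% higher of all tested peaks. It lies inside Gata2, a stem cell transcription factor gene, and held 10, 3 and 2 counts in confined and 23, 95 and 99 counts in unconfined libraries. Its log2 fold change was -1.34 (SE 0.38; adjusted p = 0.0228 in edgeR). The call was lost with the replicate block (adjusted p = 0.0862 in edgeR), in DESeq2 (0.0982), with a filter on mean log2 CPM (0.0529), without unconfined library 3 (0.0701), without confined library 2 (0.0673) and with library 1 alone for confined cells (0.184). The other marker lists differed most for stromal and endothelial genes, with 50.5 to 75.4 in confined and 36.9 to 45.1 in unconfined libraries. B cell genes held 22.9 to 28.0 in confined and 16.3 to 20.7 in unconfined libraries. Erythroid genes held 21.1 to 22.6 in confined and 16.6 to 21.6 in unconfined libraries. Myeloid genes held 32.8 to 42.0 in confined and 36.3 to 43.9 in unconfined libraries, and T and NK cell genes 24.4 to 40.2 in confined and 30.8 to 37.7 in unconfined libraries. Their part in the results was not tested.

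**Figure D1:**
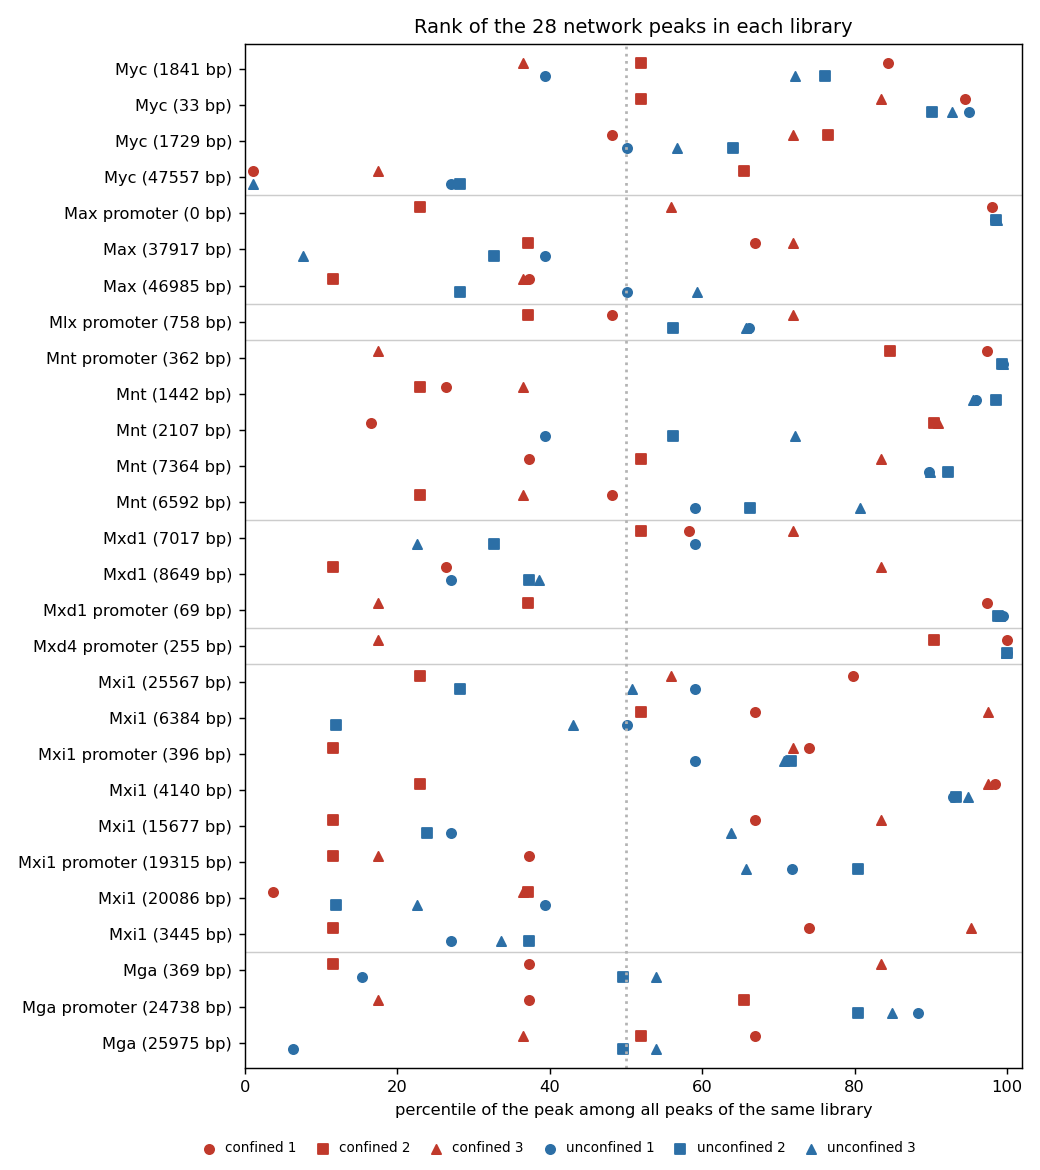
Percentile of each of the 28 network peaks among all peaks of the same library (x axis); rows are peaks, named by gene and by the distance of the midpoint from the gene end, and marked as promoter where they overlap a RefSeq promoter window. Confined libraries are red and lie above unconfined libraries (blue) in each row. The promoter peaks of Max, Mnt, Mxd1 and Mxd4 stand at percentile 98.4 or higher in every unconfined library, and their lowest confined percentiles are 17.5 to 23.0.

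Myc, the activator of the network, had a moderately open peak at its gene end that did not pass the test. Its gene-end peak lies on chromosome 15 from 61984959 to 61985658, with its midpoint 33 bp outside the gene, and overlaps the gene. It held 16, 5 and 5 counts in confined libraries 1 to 3 and 21, 53 and 58 counts in unconfined libraries 1 to 3. It stood at 2.00, 0.963 and 1.66 times the average peak in confined libraries and at 2.94, 1.84 and 2.51 times in unconfined ones, so the groups overlapped. The log2 fold change was 0.14 (SE 0.34) in the edgeR fit, which tested 9084 peaks. Its sign turned in 8 of 13 other settings, which gave -0.79 to 0.19. Averaged over its 4 peaks, Myc stood at 1.13, 1.11 and 0.997 times the average peak in confined libraries and 1.15, 1.14 and 1.12 times in unconfined ones. The groups overlapped. Another 11 peaks for which Myc is the nearest gene lie beyond 50 kb and are not counted. Closest to that limit, the last Myc peak inside it (47557 bp) held 1, 6 and 1 counts in confined and 3, 17 and 3 in unconfined libraries, and the first outside it (57142 bp) held 6, 6 and 7 in confined and 7, 13 and 12 in unconfined libraries.

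Max, the shared partner, had its peak exactly at a gene end. That peak, on chromosome 12 from 76961974 to 76962673, overlaps the promoter window and the E-box and held 20, 3 and 3 counts in confined and 32, 105 and 110 counts in unconfined libraries. It stood at 2.50, 0.578 and 0.997 times the average peak in confined libraries and at 4.47, 3.64 and 4.77 times in unconfined ones. Every confined value was below every unconfined one, and confined library 1 was the highest of its group. The log2 fold change was -0.77 (SE 0.35) and did not pass. Without confined library 1 it was -1.72 (SE 0.51) and passed. The other Max peaks, 37917 and 46985 bp from the gene, stood at 0.385 to 1.33 times the average in confined and 0.260 to 0.780 times in unconfined libraries.

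Mlx, the partner of the Mondo factors, had a single peak of average height. The Mlx peak, on chromosome 11 from 101087116 to 101087815 inside the gene, overlaps the promoter and its E-box and held 7, 4 and 4 counts in confined and 7, 24 and 21 in unconfined libraries. That is 0.875, 0.770 and 1.33 times the average peak in confined libraries and 0.979, 0.832 and 0.910 times in unconfined ones. The groups overlapped on this scale. An end of Coasy lies 846 bp from the midpoint, against 758 bp for Mlx, so the peak may belong to either gene. It was too low to be tested with the filter, and the fit to all peaks gave a log2 fold change of -0.13 (SE 0.49).

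Mnt, the broadly expressed MAX-binding repressor, held the only network peak past the threshold (adjusted p under 0.05 over all tested peaks, two-sided quasi-likelihood test of edgeR). This peak fell in confined cells. It lies inside Mnt on chromosome 11 from 74831899 to 74832598, with its midpoint 1442 bp from the gene end, and overlaps no promoter window. It held 5, 3 and 2 counts in confined libraries and 23, 105 and 72 counts in unconfined libraries. It stood at 0.625, 0.578 and 0.665 times the average peak in confined libraries, against 3.22, 3.64 and 3.12 times in unconfined ones. All confined libraries, library 1 included, lay below the average peak, and all unconfined libraries lay above 3 times it. TMM-scaled CPM averaged 53.4 ± 10.8 in confined and 167 ± 28.3 in unconfined cells (SD, n = 3 each), a log2 fold change of -1.79 (SE 0.43). The call held in 12 of 13 other settings, the replicate block among them, with log2 fold changes from -2.62 to -1.66. It was not past the threshold when library 1 alone stood for confined cells. The log2 fold change was then -2.62 (SE 0.66), and 0.0185% of 37847 peaks were called lower and 0.00793% higher. In bulk libraries, fewer cells with an open site and less opening per cell cannot be told apart.

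The promoter peak of Mnt was higher still in unconfined cells and varied more among confined ones. It lies on chromosome 11 from 74830095 to 74830794, with its midpoint 362 bp outside the gene. It held 19, 8 and 1 counts in confined and 45, 132 and 144 counts in unconfined libraries. Its multiples of the average peak were 2.38, 1.54 and 0.332 in confined libraries and 6.29, 4.58 and 6.24 in unconfined ones. The groups did not overlap, but the spread among confined libraries was wide, and the log2 fold change of -1.05 (SE 0.37) did not pass. It passed without confined library 1 (-1.53, SE 0.48) and without confined library 3 (-1.02, SE 0.37). The third tested Mnt peak, 7364 bp inside the gene, held 6, 5 and 5 counts in confined and 15, 59 and 49 in unconfined libraries. Its log2 fold change was -0.42 (SE 0.41), and 0.02 (SE 0.48) without confined library 1.

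A further Mnt peak overlaps the one that fell by 35 bp and did not share its pattern. This peak, 2107 bp from the gene end, held 4, 9 and 6 counts in confined and 4, 24 and 25 counts in unconfined libraries. It ranked at percentiles 16.5, 90.4 and 90.9 in confined libraries and at 39.4, 56.1 and 72.1 in unconfined ones. Confined library 1 ranked it lowest of all 6 libraries, and confined libraries 2 and 3 ranked it highest. Without confined library 1 it was the only network peak called higher (log2 fold change 1.85, SE 0.55), where 7.42% of all tested peaks were called lower and 16.0% higher. The fifth Mnt peak, 6592 bp from an end, held 0.578 to 0.875 times the average peak in confined and 0.839 to 1.43 times in unconfined libraries.

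Averaged over its 5 peaks, Mnt stood at 1.02, 1.08 and 1.06 times the average peak in confined libraries and at 2.60, 2.41 and 2.80 times in unconfined libraries. The means were 1.06 ± 0.0273 and 2.60 ± 0.193 (SD, n = 3 each). All 3 confined values lay near the average peak and below every unconfined one, while single Mnt peaks spread more widely among confined libraries. The confined values rest on 41, 28 and 16 summed counts in libraries 1 to 3, so their small SD is not read as close agreement. The averages of Max, Mxd1 and Mxd4 also lay below every unconfined one in all confined libraries.

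**Figure D2:**
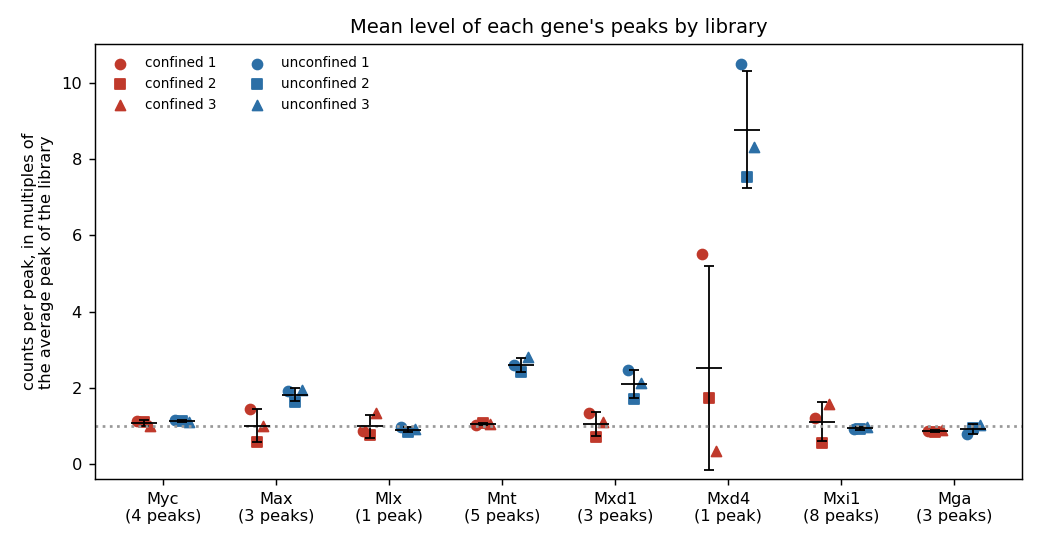
Counts per peak of each gene, in multiples of the average peak of the same library (y axis), for confined (red, left) and unconfined libraries (blue, right); black bars are the mean and SD of 3 libraries and the dotted line is the average peak. Confined values of Mnt sit at 1.02 to 1.08 below unconfined ones of 2.41 to 2.80, Myc is near 1 in both groups, and Mxd4 spreads from 0.332 to 5.50 among confined libraries.

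Mxd4, a MAX-dimerising repressor associated with differentiation, had the highest network peak. The Mxd4 peak lies on chromosome 5 from 34187616 to 34188315, with its midpoint 255 bp outside the gene. It overlaps the gene and covers its E-box. It held 44, 9 and 1 counts in confined and 75, 217 and 192 counts in unconfined libraries. That is 5.50, 1.73 and 0.332 times the average peak in confined libraries and 10.5, 7.52 and 8.32 times in unconfined ones. It stood at percentiles 99.95, 99.93 and 99.85 in unconfined libraries 1 to 3, while in confined library 3 it had fewer counts than the median peak. Confined library 1 kept it at percentile 99.96. The log2 fold change was -0.82 (SE 0.43) and did not pass. Without confined library 1 it was -2.0 (SE 0.48) and passed, the only one of 13 other settings in which it did.

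Mxd1, a repressor induced as cells of the blood and skin mature, had a promoter peak of nearly the same pattern. The Mxd1 promoter peak spans 86668954 to 86669653 of chromosome 6. It held 19, 4 and 1 counts in confined and 44, 112 and 126 in unconfined libraries. It stood at 2.38, 0.770 and 0.332 times the average in confined libraries and at 6.15, 3.88 and 5.46 times in unconfined ones, without overlap. Its log2 fold change was -1.11 (SE 0.38), and it did not pass, although it did in 6 of 13 other settings. Among these were the fits without confined library 1 (-2.20), confined library 3 (-1.10), unconfined library 1 (-1.58) and unconfined library 2 (-1.47). The other Mxd1 peaks, 7017 bp outside and 8649 bp inside the gene, held 2 to 8 counts in confined and 3 to 19 in unconfined libraries. The peak at 7017 bp stood at 1.00, 0.963 and 1.33 times the average in confined libraries and 0.839, 0.624 and 0.390 times in unconfined ones. The peak at 8649 bp stood at 0.625, 0.385 and 1.66 times in confined libraries and 0.42, 0.659 and 0.520 times in unconfined ones.

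Mxi1, whose product is also called MXD2, had the most peaks of the network. Its RefSeq promoters lie at the gene start and further inside the gene. The start peak spans 53310175 to 53310874 of chromosome 19. It held 10, 2 and 4 counts in confined and 6, 31 and 24 in unconfined libraries. It stood at 1.25, 0.385 and 1.33 times the average in confined and 0.839, 1.08 and 1.04 times in unconfined libraries, which overlap. The peak over the inner promoter windows, 19315 bp from the gene end, held 6, 2 and 1 counts in confined and 8, 38 and 21 in unconfined libraries. That is 0.750, 0.385 and 0.332 times the average in confined and 1.12, 1.32 and 0.910 times in unconfined libraries, without overlap on this scale.

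The only Mxi1 peak tested with the filter was the highest one, 4140 bp inside the gene. It held 21, 3 and 8 counts in confined and 18, 63 and 68 counts in unconfined libraries, with a log2 fold change of 0.28 (SE 0.34). The sign turned in 6 of 13 other settings, which gave -0.61 to 0.37. It kept a percentile of 98.4 and 97.5 in confined libraries 1 and 3 and had 23.0 in confined library 2, against 92.9 to 94.9 in unconfined libraries. The remaining 5 Mxi1 peaks held 2 to 11 counts in confined and 3 to 20 counts in unconfined libraries. That is 0.250 to 2.66 times the average peak in confined and 0.390 to 0.867 times in unconfined libraries. Among them, the peak 6384 bp upstream of the start had the highest fitted change of the network (log2 fold change 1.17, SE 0.50, in the fit to all peaks) and did not pass.

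Mga, the large MAX partner that joins a Polycomb repressor complex, had its promoter far from the annotated gene end. Its promoter peak, 24738 bp from that end, spans 119896892 to 119897591 of chromosome 2. It held 6, 6 and 1 counts in confined and 14, 38 and 39 counts in unconfined libraries. It stood at 0.750, 1.15 and 0.332 times the average peak in confined libraries and 1.96, 1.32 and 1.69 times in unconfined ones. All confined values were below all unconfined ones on this scale. The Mga peak at the annotated end held 6, 2 and 5 counts in confined and 2, 22 and 16 in unconfined libraries, with a log2 fold change of 0.12 (SE 0.56) in the fit to all peaks. The third Mga peak, 25975 bp from the end, held 9, 5 and 2 counts in confined and 1, 22 and 16 in unconfined libraries. None of the 3 Mga peaks reached the filter.

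**Figure D3:**
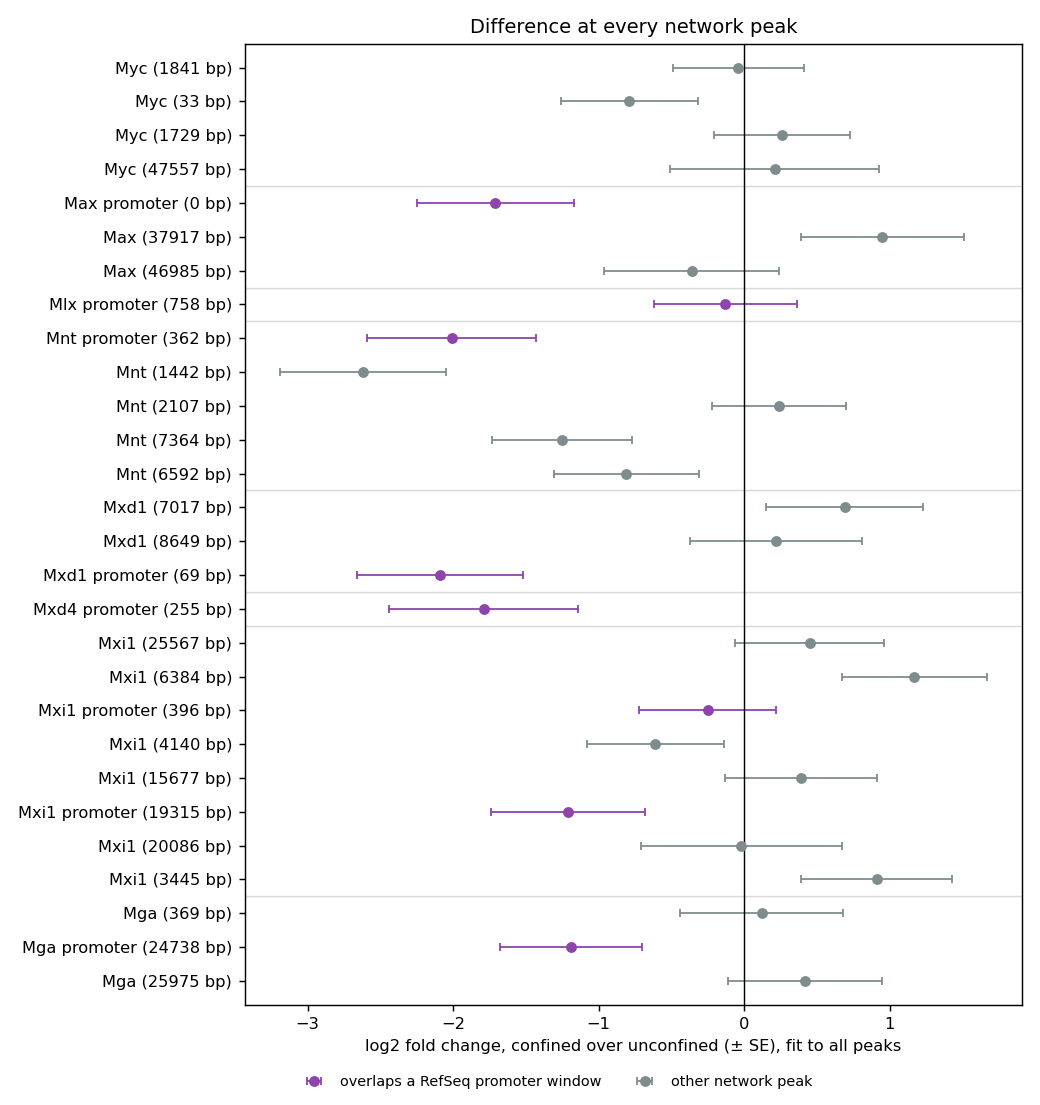
Log2 fold change of confined over unconfined libraries (x axis, bars are SE) at each network peak, from the fit to all 42632 peaks without a filter; purple marks the 8 peaks that overlap a RefSeq promoter window. All 8 purple points lie below 0, with a median of -1.46, and the other points scatter on both sides, with the Mnt peak at 1442 bp lowest at -2.62.

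Of the 28 network peaks, 8 passed the filter on low counts, and 1 of these was called lower and 0 higher. Among all 9084 tested peaks, 2.42% were called lower and 5.79% higher (edgeR, 220 and 526 peaks), and with the replicate block 74 and 476. With so few network peaks, nothing is read from their share. At an unadjusted p under 0.05, 4 network peaks were lower and 0 higher in the edgeR fit, beside 1073 lower and 1205 higher of all 9084 tested peaks. DESeq2 called 1 network peak lower and 0 higher, beside 77 lower and 453 higher of all tested peaks. The 6 tested repressor peaks had a median log2 fold change of -0.94 and the 2 tested peaks of Myc and Max one of -0.32, beside -0.02 for all tested peaks and -0.26 for those within 1 kb of a gene end, of which 3.78% were called lower and 1.08% higher. Peaks can pass the filter by being high in one group alone, so these medians do not stand for all members.

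Without the filter, all 28 peaks were fitted, and 16 had a value below 0. The median was -0.14 over the 20 repressor peaks and -0.09 over the 8 others, against 0.12 over all peaks. In this fit 4 network peaks were called lower, the Mnt peaks at 362 and 1442 bp and the promoter peaks of Max and Mxd1, and 0 higher. At an unadjusted p under 0.05 the fit gave 8 network peaks lower and 1 higher, beside 5709 lower and 4062 higher of all peaks. With library 1 alone for confined cells, the log2 fold changes were -1.46 and -2.62 at the Mnt peaks, -0.98 at Max and -1.30 at Mxd1, and none passed. The background was 4.27% of all peaks called lower and 1.47% higher, and 11.7% of peaks within 1 kb of a gene end called lower and 0.293% higher. With total counts as the only scaling, 4 network peaks were also called lower, beside 25.2% of all tested peaks lower and 3.83% higher. In the fit without a filter, the median over all 11270 peaks near gene ends was -0.58 (8266 below 0). Over the 1695 peaks at 3 or more times the average peak in unconfined cells it was -1.59 (1693 below 0). The promoter peaks of Max, Mnt, Mxd1 and Mxd4 are among these 1695. The 8 network peaks that overlap a RefSeq promoter window, a class formed after the values were seen, had a median of -1.46 and were all below 0. Their mean level was 2.05, 0.915 and 0.665 times the average peak in confined libraries and 4.04, 3.02 and 3.67 times in unconfined ones. The remaining 20 network peaks stood at 1.02, 0.790 and 1.36 times in confined and 0.986, 1.05 and 1.07 times in unconfined libraries.

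In TMM-scaled CPM, 5 network peaks had all confined libraries below all unconfined ones: the peaks of Max, Mnt (the promoter and the peak at 1442 bp), Mxd1 and Mxd4 named above. Another 10 had all confined libraries above: 1 of Myc, 2 of Max, 1 of Mlx, 2 of Mxd1, 3 of Mxi1 and 1 of Mga. Of all peaks, 4.33% were in the first state and 37.2% in the second (18.3% and 14.1% of tested peaks). The 5 lower network peaks all stood at 3 or more times the average peak in unconfined cells. Of the 1695 peaks at that level, 972 were in the first state and 3 in the second. A single count is worth 8.34, 18.6 and 31.4 TMM-scaled CPM in confined libraries 1 to 3 and 1.90 to 6.72 in unconfined ones. The part of this difference in the count of 10 was not tested. TMM-scaled CPM is scaled by the counts in tested peaks. These held 23.6 to 34.8% of the counts of confined and 43.2 to 51.2% of those of unconfined libraries. In multiples of the average peak, the 5 lower peaks stayed apart. Of the 10, only the peaks of Max at 37917 bp, Mxd1 at 7017 bp and Mxi1 at 6384 bp did. All 10 were among the 20 peaks that did not reach the filter. The mean level of those 20 peaks was 0.956 ± 0.219 times the average peak in confined and 0.749 ± 0.0504 times in unconfined cells (SD, n = 3 each).

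The 5 highest network peaks can be set beside the strong peaks of the whole set. Of all peaks, 1695 stood at 3 or more times the average peak in unconfined cells, a limit chosen after the values were seen. Their confined level was 0.347 of the unconfined one at the median, with the middle 50% between 0.279 and 0.429. The ratio was 0.187 at the Mnt peak at 1442 bp, 0.225 at the Mxd1 promoter, 0.248 at the Mnt promoter, 0.287 at Mxd4 and 0.316 at Max. These ratios use the contrast that chose the genes, and nothing is read from their place among the strong peaks. Among these strong peaks 10.3% were called lower and 0.0% higher in the edgeR fit, and 49.1% lower and 0.0% higher in the fit without a filter.

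**Figure D4:**
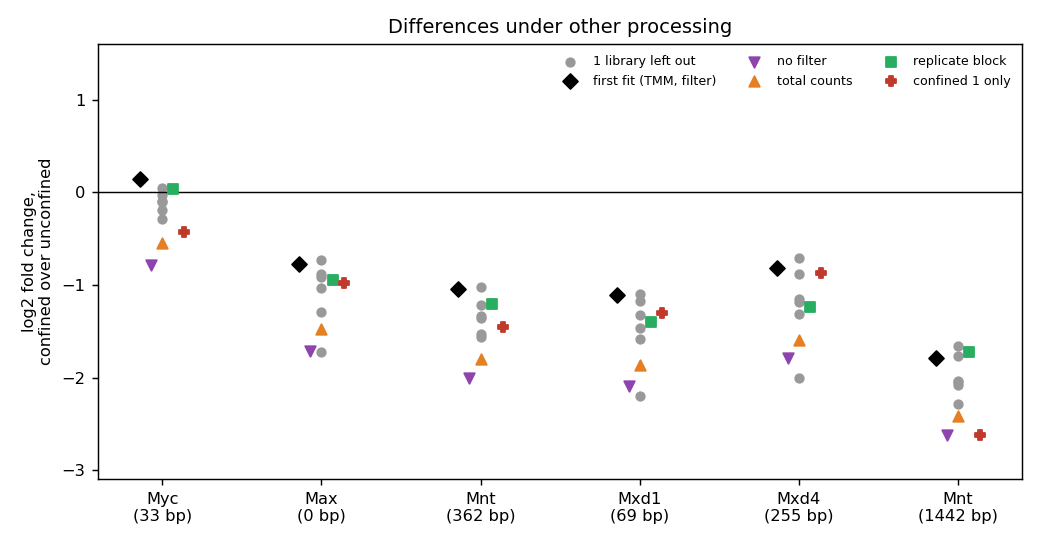
Log2 fold change of confined over unconfined libraries (y axis) at 6 of the 8 tested network peaks under the first fit (black diamonds) and under other settings. Grey points leave out 1 library each. The tested peaks of Mnt at 7364 bp and Mxi1 at 4140 bp, whose signs turned in other settings, are not drawn. The drawn peaks of Max, Mnt (362 and 1442 bp), Mxd1 and Mxd4 stay below 0 in every setting drawn. The Myc peak lies on both sides of 0, and the Mnt peak at 1442 bp lies between -2.62 and -1.66.

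The level of Mxd4 in unconfined cells, 8.78 ± 1.53 times the average peak (SD, n = 3 each here), stood above that of every other network peak in each library. The Mnt promoter followed with 5.70 ± 0.975, Mxd1 with 5.17 ± 1.16 and Max with 4.29 ± 0.584, and these neighbours did not differ beyond their spread. The Mnt peak at 1442 bp had 3.33 ± 0.277, the highest Mxi1 peak 2.55 ± 0.382 and the Myc peak 2.43 ± 0.554. The order was not kept in confined cells, where Mxd4 averaged 2.52 ± 2.67, the highest Mxi1 peak 1.95 ± 1.19 and the Myc peak 1.54 ± 0.529. The Mnt promoter averaged 1.42 ± 1.03, Max 1.36 ± 1.01 and Mxd1 1.16 ± 1.08 there. Of the peaks named here, the Mnt peak at 1442 bp came last with 0.623 ± 0.0436, from 5, 3 and 2 counts. No neighbours in this confined order differed beyond their spread. The remaining network peaks are outside this order. Among them, confined averages were 1.58 ± 0.936 for Mxi1 at 6384 bp, 1.125 ± 0.477 for Mnt at 7364 bp and 0.489 ± 0.228 for Mxi1 at 19315 bp.

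Across the 6 libraries, the gene-end peaks most like the Mnt peak that fell were those of Klf13 (Pearson r = 0.987 of log2(TMM CPM + 1)), Ulk1 (0.981) and Eya3 (0.976), out of 4633 compared. In all, 101 of them had r above 0.9. Among the other tested network peaks, r was 0.657 for Max, 0.639 for Mxd1, 0.591 for the Mnt promoter, 0.488 for Mxd4, 0.417 for the Mnt peak at 7364 bp, -0.0829 for Mxi1 and -0.178 for Myc. Klf13, Ulk1 and Eya3 were picked as the highest of 4633 and the network peaks were not, so nothing is read from the difference.

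Genes that work with the network were taken from lists of known partners and targets. Mycn, Mycl, Mxd3, Mlxip and Mlxipl, the remaining members of the family, had 11 peaks, of which 1 was tested. Neither edgeR nor DESeq2 called it. At an unadjusted p under 0.05 in edgeR it was lower, beside 1073 lower and 1205 higher of all 9084 tested peaks. The co-repressors of MXD and MNT proteins, SIN3 and histone deacetylase subunits, had 12 tested peaks with a median log2 fold change of -0.75, of which 10 were below 0. None of them was called by edgeR, and DESeq2 called 1 lower. At an unadjusted p under 0.05, 6 were lower and 0 higher, beside 812 lower and 197 higher of the 4633 tested peaks near gene ends. Their summed level was 54.6 to 97.7 per 100000 counts in confined and 138 to 168 in unconfined libraries. The groups did not overlap there, nor did they over all peaks near gene ends, which averaged 0.905 to 1.17 times the average peak in confined and 1.46 to 1.63 times in unconfined libraries.

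The partners of MGA in its Polycomb complex had 5 tested peaks (median -0.28) and the cofactors and turnover factors of MYC 17 (median -0.21), with 0 called by edgeR or DESeq2 in either list. At an unadjusted p under 0.05, 1 and 2 of them were lower and 0 higher, beside 1073 lower and 1205 higher of all 9084 tested peaks. The edgeR fit called 2.42% of all tested peaks lower and 5.79% higher. Genes driven by Mondo and MLX, such as Txnip and Arrdc4, had 8 tested peaks with a median of 0.40, 0 of them called by edgeR or DESeq2 and 2 higher at an unadjusted p under 0.05.

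Among 40 matched target genes of MYC, 29 peaks were tested and 2 were called lower and 1 higher, beside 2.42% and 5.79% of all tested peaks. The median was -0.10. The Cdk4 peak, at the end of the gene of a G1 cyclin-dependent kinase, held 4, 4 and 0 counts in confined and 16, 60 and 62 in unconfined libraries. Its log2 fold change was -1.59 (SE 0.48; adjusted p = 0.0327 in edgeR, and 0.108 with the replicate block). The Cdc25a peak, at the end of the gene of a phosphatase that activates cyclin-dependent kinases, held 10, 3 and 1 counts in confined and 19, 86 and 89 in unconfined libraries. Its log2 fold change was -1.27 (SE 0.40; adjusted p = 0.0363 in edgeR, and 0.109 with the replicate block). DESeq2 called neither of them (adjusted p = 0.124 and 0.143). Without unconfined library 3, neither was called (edgeR adjusted p = 0.0803 and 0.0916). Cdk4 was also not called without confined library 1 (0.118), nor Cdc25a without confined library 2 (0.0737), and Cdc25a moved to -1.93 without confined library 1. A peak inside Nme1, a nucleoside diphosphate kinase gene, held 11, 7 and 7 counts in confined and 2, 10 and 5 in unconfined libraries. Its log2 fold change was 3.13 (SE 0.60; adjusted p = 0.000807 in edgeR, and 0.000127 with the replicate block). The Nme1 peak passed in the 3 of 6 fits without 1 library that tested it. With the filter on mean log2 CPM it was left out and not tested. Its TMM-scaled CPM averaged 147 ± 65.9 in confined and 14.2 ± 4.44 in unconfined libraries (SD). A peak can pass the first filter by being high in one group alone, so this call is a description. With library 1 alone for confined cells, the fold changes of Cdk4, Cdc25a and Nme1 were (log2) -2.42, -1.58 and 2.04, and none passed.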

How the data were processed

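The authors deposited raw counts per peak for all 6 samples and the coordinates of the consensus peaks. SAMtools 1.14, R 4.2.0, featureCounts and mm10 are named, per the submitters' processing notes. Not given in the sources used here are the aligner, the peak caller, the libraries it was run on, and how duplicates and the transposase offset were handled. A peak set drawn mostly from the deeper libraries would lack sites open only in confined cells.

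Peaks were linked to genes with RefSeq GRCm38.p6. The deposited counts went into the quasi-likelihood test of edgeR 4.0.16 (R 4.3.3; TMM scaling, group term, Benjamini-Hochberg adjustment), whose filterByExpr kept 9084 of 42632 peaks. The SE is the log2 fold change divided by the root of the F statistic. DESeq2 1.42.0 was an alternative. A floor of 3 counts equals 25.0, 55.7 and 94.3 TMM-scaled CPM in confined and 20.2, 5.70 and 6.13 in unconfined libraries. Tables were made in Python 3.11.15.

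The labels give same-numbered samples of the groups a shared experimental batch, and the pairing comes from that label. Deviations from group means correlated at r = 0.00352, 0.00291 and -0.0569 in pairs 1 to 3, so it was not visible in the counts. The network genes, gene lists and tests were chosen with earlier results of these data known. Values by library are given for the gene-end peak with most counts of each gene and for each called peak, and further peaks named with their values were chosen after these were seen. Of the MYC target list, 1 name (Phb1) did not match.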

Additional observations from a re-analysis of the deposited data

How the results depend on the processing

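The direction at the tested peaks of Max, Mnt (362 and 1442 bp), Mxd1 and Mxd4 was the same in all 13 other settings. The Myc peak turned to -0.55 with total counts as the only scaling, -0.79 with no filter, -0.43 with confined library 1 alone, and -0.29 to 0.05 without 1 library (below 0 in 5 of 6). The Mxi1 start peak, at -0.25 with no filter, turned to 0.03 without unconfined library 1, 0.63 without confined library 2 and 0.08 with confined library 1 alone. The Mxi1 peak at 4140 bp turned to -0.38 with total counts, -0.61 with no filter, -0.17 with confined library 1 alone, and -0.23 to 0.37 without 1 library. The Mnt peak at 7364 bp turned to 0.02 without confined library 1. The Mga end peak, at 0.12 with no filter, turned to -0.02 with confined library 1 alone. The cause was not tested.

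Network peaks called lower numbered 4 with total counts, where 25.2% of all tested peaks were called lower, and 4 with no filter, where 4.27% were. Without 1 library they numbered 1 to 5. The 5 came without confined library 1, where 7.42% of all tested peaks were called lower and 16.0% higher. Called higher were 0 to 1 without 1 library. Total counts as the only scaling moved the median of all tested peaks to -0.68, against -0.02 in the first fit, and the medians to -1.70 for repressors and -1.01 for Myc and Max. These fits differ in more than the TMM factors. The first takes library sizes from tested peaks only, and total-count scaling takes them from all peaks. The part of each in the shift was not tested. The repressor median was -0.14 with no filter and -0.17 with confined library 1 alone, where 20 and 19 peaks were fitted. Without 1 library it ranged from -1.18 to -0.82, and that of the activator and partners from -0.90 to -0.29. With the replicate block, 1 network peak was called lower, as without it, and no other network call changed.

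Over all peaks, 2286 were called lower and 348 higher with total counts, 1821 lower with no filter, 77 lower by DESeq2, 71 lower and 171 higher with the mean log2 CPM filter, 74 lower with the replicate block, and 7 lower and 3 higher with confined library 1 alone. Without 1 library the lower calls ranged from 76 to 788 and the higher ones from 250 to 1696, with 10622 to 15977 peaks tested. Depth limits single confined values, since the median peak held 3 to 7 counts in confined and 5 to 22 in unconfined libraries.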
